A study of Mus musculus with 6 samples.

Results

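The cell cycle and proliferation genes examined here are a named list of 53 mouse genes, of which 20 act before or during DNA replication (S-phase members) and 33 act in G2 and mitosis (mitotic members). Where several probe sets carry 1 gene's symbol, the one with the highest average across the 6 arrays stood for that gene. Values were obtained for 52 of the 53 genes, out of 18193 genes with such a probe set. The remaining gene, cyclin B1 (Ccnb1), is not analysed here. Of the 52 genes, 46 passed a filter on dim probe sets (19 S-phase and 27 mitotic members), and 11015 of all genes did.

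The arrays compared 3 CD4 T cell populations that had shared the same hosts for 125 days. The hosts were BALB/c mice lacking Rag1, a strain without T or B cells of its own, and had received wild-type natural regulatory T cells (nTreg) plus 500000 wild-type regulatory T cells induced in culture (iTreg). EGFP reports Foxp3, the master regulator of regulatory T cells, while the surface allele Thy1.1 identifies descendants of the cultured cells. The ex-iTreg cells carried Thy1.1 without EGFP, the iTreg cells carried both, and the nTreg cells carried EGFP without Thy1.1. Cells were sorted from spleens and mesenteric lymph nodes of 14 hosts and pooled, with 2 pools per population, and whether those 2 pools came from different mice is not stated in the labels. P-values therefore reflect the spread of such pools alone, possibly a technical one. Every cell had lived in a host without T or B cells of its own. All 3 populations therefore share an environment in which transferred T cells are known to divide, and no untransferred T cells are analysed here.

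Values are log2 expression as deposited, and array medians lay between 5.47 and 5.49. Pearson correlations across probe sets were 0.9968 to 0.9978 within populations and 0.9831 to 0.9910 between populations. The sort labels were checked on regulatory T cell markers: all 4 that passed the filter (Il2ra, Ikzf2, Ctla4 and Tnfrsf18) were lower in ex-iTreg than in iTreg cells. The probe set of Foxp3 itself lay under the filter level of 5.48 on every array, between 3.99 and 4.29, and checks nothing. T cell identity markers had summed linear intensities of 39067 to 39428 in ex-iTreg, 40075 to 41330 in iTreg and 39763 to 40580 in nTreg pools. Markers of other cells also moved between populations. Summed myeloid markers (12 of 14 above the filter) were 7776 to 7946 in ex-iTreg, 11129 to 11839 in iTreg and 7961 to 8015 in nTreg pools. Summed erythroid markers (4 of 5 above the filter, haemoglobin Hba-a1 not) were 476 to 544, 774 to 786 and 524 to 529 in the same order, and B cell markers (2 of 6 above the filter) were 137 to 147, 220 to 222 and 338 to 361. Of the B cell markers, Cd79a, Pax5, Blnk and Ebf1 lay under the filter level. Stromal markers (2 of 7 above the filter) summed to 335 in both ex-iTreg pools, 374 to 378 in iTreg pools and 313 to 330 in nTreg pools.

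Cells entering S phase release E2F transcription factors from the retinoblastoma family, and E2F activates genes for origin licensing, the replicative helicase and nucleotide supply. A later wave, controlled by the MuvB complex with B-MYB and FOXM1 through a promoter element called the CHR (cell cycle genes homology region), supplies the cyclins, kinases, motors and kinetochore proteins of mitosis. In resting cells the DREAM complex, which contains MuvB, represses both waves. Ki-67, encoded by Mki67, is present in cycling cells and absent from resting ones, and is the common stain for dividing T cells.

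RefSeq promoters (250 bases before to 50 after the annotated start, build GRCm38.p6) were found for 43 of the 52 members, 2 of which have 2 promoters. They were searched on both strands for E2F letters (TTCCCGC or TTGGCGC or TTGCCGC or TTCGCGC), CHR letters (TTTGAA or TTCGAA) and CCAAT, matches being allowed to overlap. The promoters printed here belong to 3 mitotic members with large differences between ex-iTreg and iTreg cells (Ccnb2, Ube2c and Birc5), to 2 S-phase members that were higher in ex-iTreg cells (Cdt1 and Chek1) and to 1 that was lower in both induced populations than in nTreg cells (Mcm6). Capitals mark the matches to any of these motifs. They lie at chr9:70421505-70421804, minus strand (Ccnb2), chr2:164769679-164769978, plus strand (Ube2c), chr11:117848987-117849286, plus strand (Birc5), chr8:122567765-122568064, plus strand (Cdt1), chr9:36726609-36726908, minus strand (Chek1) and chr1:128359656-128359955, minus strand (Mcm6). Each is written 5′ to 3′ in the direction of its gene.
Ccnb2: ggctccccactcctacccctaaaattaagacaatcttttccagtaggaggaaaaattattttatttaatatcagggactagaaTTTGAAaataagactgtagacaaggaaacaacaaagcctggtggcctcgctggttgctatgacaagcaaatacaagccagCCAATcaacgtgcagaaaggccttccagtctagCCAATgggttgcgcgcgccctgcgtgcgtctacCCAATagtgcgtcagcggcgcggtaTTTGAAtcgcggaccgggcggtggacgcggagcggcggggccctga
Ube2c: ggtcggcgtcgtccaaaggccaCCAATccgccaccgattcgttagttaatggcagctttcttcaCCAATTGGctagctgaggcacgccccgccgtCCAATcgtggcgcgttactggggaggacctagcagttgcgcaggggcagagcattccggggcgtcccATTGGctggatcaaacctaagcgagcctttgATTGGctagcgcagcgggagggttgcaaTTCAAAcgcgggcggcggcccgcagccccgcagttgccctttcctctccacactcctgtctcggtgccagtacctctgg
Birc5: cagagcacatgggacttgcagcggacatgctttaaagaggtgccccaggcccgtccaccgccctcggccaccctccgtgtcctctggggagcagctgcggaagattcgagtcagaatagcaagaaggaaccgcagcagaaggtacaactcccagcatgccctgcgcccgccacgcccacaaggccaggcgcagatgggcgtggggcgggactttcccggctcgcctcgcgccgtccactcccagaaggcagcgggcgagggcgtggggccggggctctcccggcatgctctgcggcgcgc
Cdt1: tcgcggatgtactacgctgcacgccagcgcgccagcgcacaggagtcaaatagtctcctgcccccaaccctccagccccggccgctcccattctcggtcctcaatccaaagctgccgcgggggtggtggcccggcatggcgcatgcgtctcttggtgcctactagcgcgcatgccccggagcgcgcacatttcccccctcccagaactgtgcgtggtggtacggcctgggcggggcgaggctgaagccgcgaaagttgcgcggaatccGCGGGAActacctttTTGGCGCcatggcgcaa
Chek1: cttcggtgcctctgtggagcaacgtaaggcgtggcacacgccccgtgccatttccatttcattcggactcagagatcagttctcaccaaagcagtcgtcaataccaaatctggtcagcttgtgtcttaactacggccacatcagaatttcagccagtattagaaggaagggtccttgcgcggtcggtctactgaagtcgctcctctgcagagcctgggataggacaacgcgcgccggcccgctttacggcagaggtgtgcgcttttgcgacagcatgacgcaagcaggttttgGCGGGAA
Mcm6: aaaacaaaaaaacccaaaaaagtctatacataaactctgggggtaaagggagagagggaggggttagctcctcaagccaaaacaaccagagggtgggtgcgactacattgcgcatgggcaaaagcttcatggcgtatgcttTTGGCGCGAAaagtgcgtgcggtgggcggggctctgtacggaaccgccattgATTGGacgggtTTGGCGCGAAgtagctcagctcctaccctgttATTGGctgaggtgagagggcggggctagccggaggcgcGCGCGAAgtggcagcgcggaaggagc

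The mitotic promoters of Ccnb2 and Ube2c hold CHR letters with several CCAAT boxes and no E2F letters. The 3 S-phase promoters hold E2F letters and no CHR letters, and the window of Birc5 holds none of the letters searched. The promoter of Ncapg, another mitotic member with a large difference, is not printed and holds 1 E2F, 1 CHR and 1 CCAAT match. Over the members with a promoter, CHR letters were in 21 of 26 mitotic members (80.8%) and 4 of 17 S-phase members (23.5%), against 21.7% of all 27025 genes of the promoter table. E2F letters were in 4 of 26 mitotic members (15.4%) and 11 of 17 S-phase members (64.7%), against 10.9% of all genes. CHR letters and CCAAT stood in the same promoter of 19 mitotic members (73.1%) and 4 S-phase members (23.5%), against 8.61% of all genes. These matches describe the sequences and are not bound sites.

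**Figure D1:**
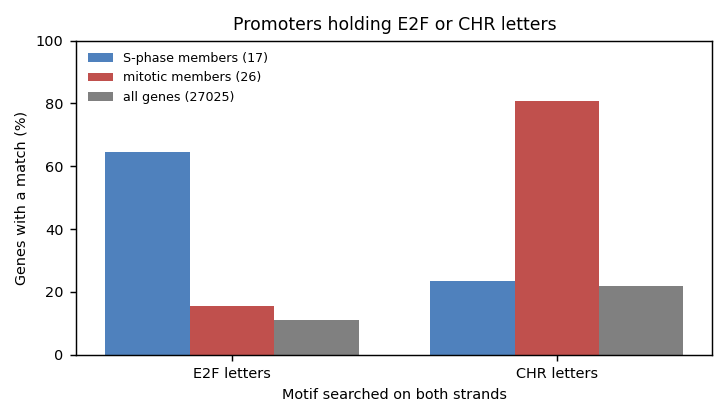
Percent of genes whose RefSeq promoter holds E2F letters (left) or CHR letters (right), for 17 S-phase members, 26 mitotic members and all 27025 genes of the table; bars start at 0. E2F letters are in 64.7% of S-phase members and CHR letters in 80.8% of mitotic members.

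Most mitotic members were lowest in ex-iTreg cells and highest in nTreg cells. The mean over the 27 tested mitotic members was 6.87 and 6.82 in the ex-iTreg pools, 7.18 and 7.13 in the iTreg pools and 7.38 and 7.28 in the nTreg pools, on the log2 scale, and no pool of one population overlapped another. The mean over the 19 tested S-phase members was 8.24 and 8.20 in ex-iTreg, 8.29 and 8.23 in iTreg and 8.41 and 8.34 in nTreg pools, where the ex-iTreg and iTreg ranges overlapped. By group means, 20 of 27 mitotic members were lowest in ex-iTreg cells and 20 were highest in nTreg cells (74.1% each). Of 19 S-phase members, 8 were lowest in ex-iTreg cells and 8 were highest in nTreg cells (42.1% each). Among all tested genes, 35.9% were lowest in ex-iTreg cells and 28.3% highest in nTreg cells. The mitotic counts include Ncapg, which passed the filter only through the nTreg pools. The full order with nTreg highest, iTreg between and ex-iTreg lowest was seen in 16 of 27 mitotic members (59.3%), 5 of 19 S-phase members (26.3%) and 17.9% of all tested genes, and the other mitotic members departed from it: Cdc20, Cdca3 and Prc1, for example, were highest and Top2a and Mad2l1 lowest in iTreg cells. In pooled cells, fewer cycling cells and less RNA per cycling cell cannot be told apart.

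**Figure D2:**
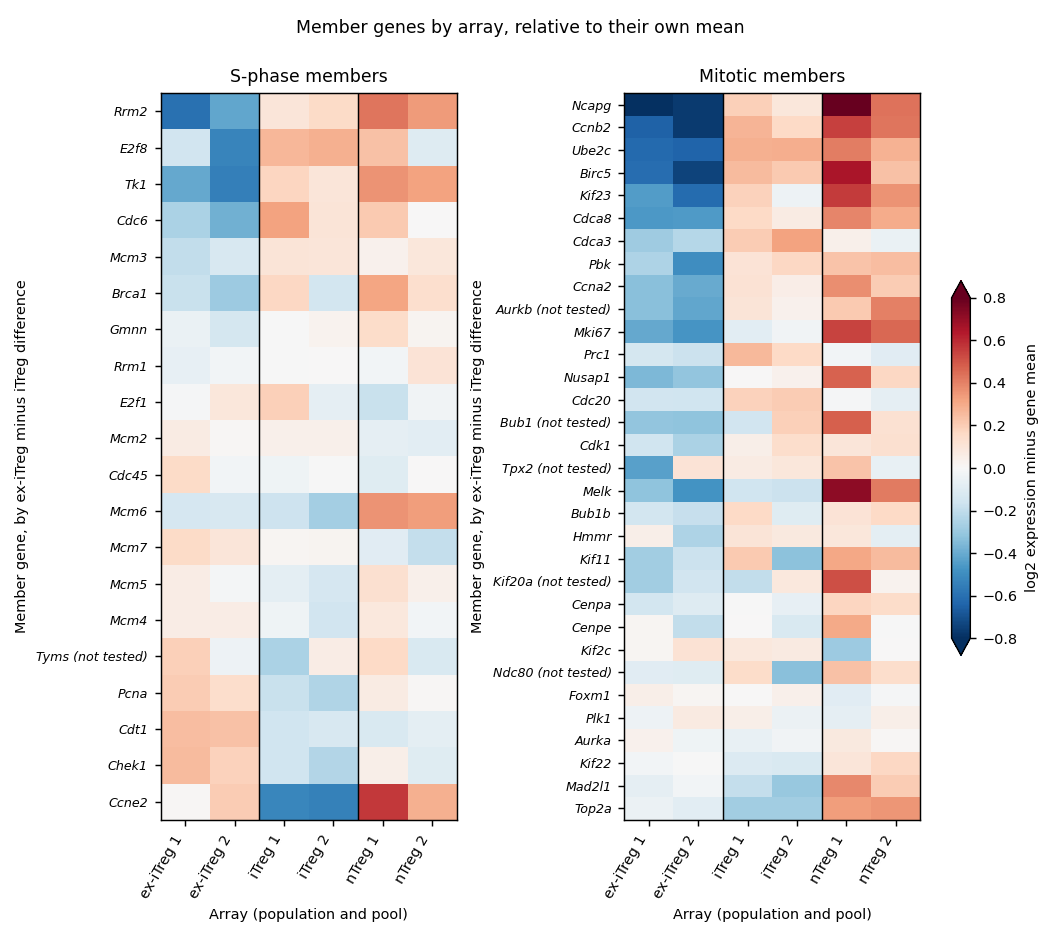
Log2 expression of the 52 measured members on each array, minus the gene's own mean over the 6 arrays, for S-phase members (left) and mitotic members (right), sorted by the ex-iTreg minus iTreg difference; colours saturate at 0.8. Ncapg, Ccnb2, Ube2c and Birc5 form the darkest blue block in both ex-iTreg pools. Ccne2, Chek1, Cdt1 and Pcna at the foot of the left panel are lower in the iTreg than in the ex-iTreg pools.

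The first comparison sets ex-iTreg cells against the iTreg cells that kept the reporter signal, and asks which cycle genes go with its absence. Of the 27 tested mitotic members, 14 were lower in ex-iTreg cells (51.9%) and 1 was higher, with limma and an adjusted p under 0.05. Among all tested genes, 21% were lower and 15.6% higher. The median difference over mitotic members was -0.30, against -0.02 over all tested genes. The count of 14 was 9 without ex-iTreg pool 2 and was 13 or 14 without any other array. It includes Ncapg, which passed the filter only through the nTreg pools, and without that gene, a count added after the data were seen, it was 13 of 26. Myeloid and erythroid markers were also lower in ex-iTreg pools in this comparison (11 of 12 and 3 of 4 called lower), and their part in the result was not tested.

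The 4 largest mitotic differences were in a cyclin of mitotic entry, an enzyme of mitotic exit, a passenger complex subunit and a condensin subunit. Ccnb2, a B-type cyclin that activates CDK1 at mitotic entry, had 6.65 and 6.53 in the ex-iTreg pools, 7.56 and 7.45 in the iTreg pools and 7.84 and 7.72 in the nTreg pools. The ex-iTreg pools lay apart below all others, and Ccnb2 was 1.89-fold lower than in iTreg cells (difference -0.92 ± 0.08 SE, n = 2 each, limma adjusted p = 0.000516). Ube2c, the ubiquitin-conjugating enzyme of the anaphase-promoting complex, had 7.44 and 7.42 in ex-iTreg, 8.34 and 8.34 in iTreg and 8.46 and 8.33 in nTreg pools. Its ex-iTreg pools were again the lowest, while iTreg and nTreg pools overlapped, and the difference from iTreg cells was -0.91 ± 0.07 (limma adjusted p = 0.000308). Birc5, or survivin, a subunit of the chromosomal passenger complex and an inhibitor of apoptosis, had 6.80 and 6.67 in ex-iTreg, 7.66 and 7.62 in iTreg and 8.06 and 7.64 in nTreg pools. It differed by -0.90 ± 0.14 from iTreg cells (limma adjusted p = 0.0037), and the iTreg and nTreg pools overlapped. Ncapg, a condensin subunit, had 4.33 and 4.42 in ex-iTreg, 5.37 and 5.27 in iTreg and 6.09 and 5.62 in nTreg pools. The difference of -0.95 ± 0.15 (limma adjusted p = 0.00419) lies between 2 populations under the filter level of 5.48, since Ncapg passed the filter only through its nTreg pools, so its size is uncertain.

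The other mitotic members lower in ex-iTreg than in iTreg cells covered most roles. The role lists are short, and 21% of all tested genes were lower. Of the 6 tested mitotic cyclins, cell cycle kinases and FOXM1, 4 were lower (66.7%). Cdk1, the kinase that drives mitosis, had 6.73 and 6.63 in ex-iTreg, 6.93 and 7.03 in iTreg and 6.98 and 7.02 in nTreg pools (-0.30 ± 0.07 against iTreg cells). Its partner cyclin A2 (Ccna2) had 6.74 and 6.67 in ex-iTreg, 7.19 and 7.13 in iTreg and 7.45 and 7.28 in nTreg pools (-0.46 ± 0.08). In both genes the ex-iTreg pools lay below all others. The kinase Pbk was also lower (-0.51 ± 0.09), whereas Melk (-0.24) and Foxm1 (0.0079), the transcription factor of the mitotic wave, did not pass the test. All 3 members tied to the anaphase-promoting complex were lower: beside Ube2c these were its activator Cdc20 (-0.35 ± 0.06) and Cdca3 (-0.52 ± 0.08), an adaptor for mitotic destruction. Of 4 tested mitotic kinases and passenger complex subunits, 2 were lower (50%): Birc5 and its partner Cdca8, or borealin (-0.57 ± 0.07). The kinases Aurka and Plk1 were not called. Of 7 tested spindle motors and cytokinesis proteins, the central spindle proteins Kif23 (-0.60 ± 0.11) and Prc1 (-0.37 ± 0.07) and the spindle protein Nusap1 (-0.36 ± 0.11) were lower. None of the 4 tested kinetochore and checkpoint members (Bub1b, Cenpa, Cenpe and Mad2l1) was called, with differences between -0.20 and 0.20. Calls for Kif23, Prc1 and Mki67 ended without ex-iTreg pool 2 (the highest adjusted p was 0.0563), that for Cdk1 ended without ex-iTreg pool 2 or iTreg pool 2, and that for Nusap1 ended without any 1 of the 4 pools compared.

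Mki67, whose protein coats mitotic chromosomes, had 8.70 and 8.63 in ex-iTreg, 9.02 and 9.08 in iTreg and 9.65 and 9.56 in nTreg pools, so the 3 populations did not overlap. It was 1.30-fold lower in ex-iTreg than in iTreg cells (-0.38 ± 0.07, limma adjusted p = 0.00655). Top2a, the topoisomerase that untangles replicated chromosomes, had 8.41 and 8.37 in ex-iTreg, 8.17 and 8.17 in iTreg and 8.78 and 8.80 in nTreg pools. It was the only mitotic member called higher in ex-iTreg cells (0.22 ± 0.06, limma adjusted p = 0.0337), a call that ended without any 1 of the 4 pools compared, without the filter, with a replicate block and with the mean of its probe sets (0.031, adjusted p = 0.711). A second tested probe set of Top2a gave -0.03 for the same comparison and was not called.

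**Figure D3:**
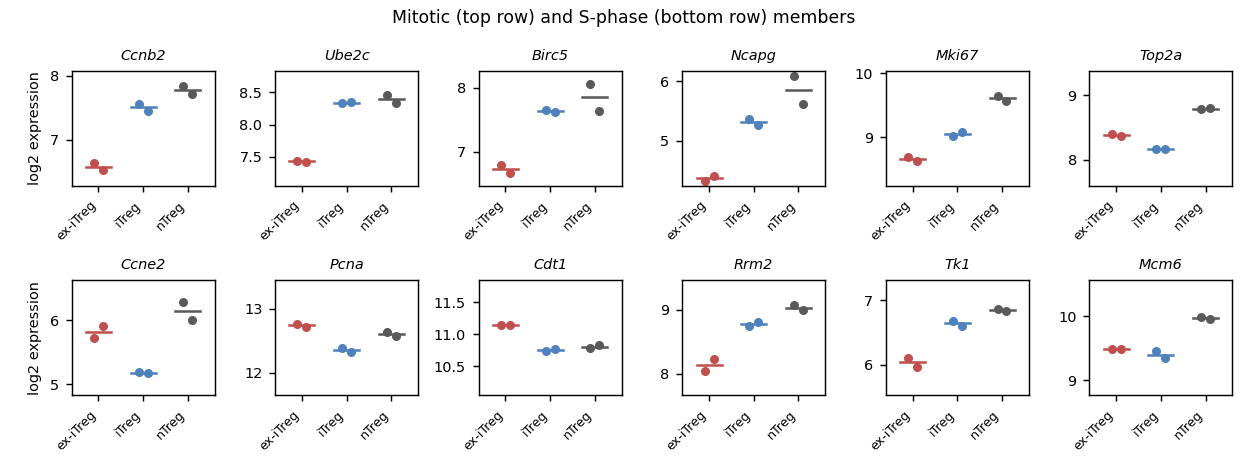
Log2 expression of 12 members on each array (points, 2 pools per population) with the population mean (line), ex-iTreg left, iTreg middle and nTreg right; vertical axes differ between panels. The upper row shows mitotic members and the lower row S-phase members: Ccnb2, Ube2c and Birc5 are lowest in ex-iTreg pools, and Ccne2 is lowest in iTreg pools at 5.19 and 5.17.

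S-phase members were called in both directions in the same comparison, in shares near those of all tested genes. Of 19 tested, 4 were higher and 5 lower in ex-iTreg than in iTreg cells (21.1% and 26.3%), against 15.6% and 21% of all tested genes, and their median difference was -0.0055. The count of 5 lower members was 2 without iTreg pool 1 or ex-iTreg pool 2 and 3 without iTreg pool 2.

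The members that were higher in ex-iTreg cells were Cdt1, Pcna, Chek1 and Ccne2. Of the 4 tested members of origin licensing and firing, 1 was higher and 1 lower (25% each), against 15.6% and 21% of all tested genes. Cdt1, which loads the helicase at origins, had 11.15 and 11.14 in ex-iTreg, 10.75 and 10.78 in iTreg and 10.79 and 10.83 in nTreg pools. Its ex-iTreg pools stood above all others, by 0.38 ± 0.06 against iTreg cells (limma adjusted p = 0.00451), and a second tested probe set gave 0.49 (limma adjusted p = 0.00509). Pcna, the clamp that holds DNA polymerases on the template, had 12.77 and 12.71 in ex-iTreg, 12.39 and 12.33 in iTreg and 12.63 and 12.57 in nTreg pools, a difference from iTreg cells of 0.38 ± 0.07 (limma adjusted p = 0.00594). Chek1, the kinase of the replication checkpoint, had 6.97 and 6.90 in ex-iTreg, 6.56 and 6.48 in iTreg and 6.76 and 6.62 in nTreg pools. It was higher by 0.41 ± 0.08 than in iTreg cells, a call that ended without ex-iTreg pool 1 (limma adjusted p = 0.0556). Cyclin E2 (Ccne2), which with CDK2 drives entry into S phase, had 5.72 and 5.91 in ex-iTreg, 5.19 and 5.17 in iTreg and 6.28 and 6.00 in nTreg pools. The iTreg pools were the low ones, under the filter level, and the difference was 0.64 ± 0.11 (limma adjusted p = 0.00626).

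The members that were lower in ex-iTreg cells include both tested suppliers of nucleotides that peak in S phase. Rrm2, the regulated subunit of ribonucleotide reductase, had 8.05 and 8.23 in ex-iTreg, 8.75 and 8.80 in iTreg and 9.08 and 8.99 in nTreg pools. It was 1.55-fold lower in ex-iTreg than in iTreg cells (-0.63 ± 0.08, limma adjusted p = 0.00222), and its 2 other tested probe sets were called lower as well (-0.29 and -0.65). Tk1, the thymidine kinase of cycling cells, had 6.10 and 5.97 in ex-iTreg, 6.69 and 6.61 in iTreg and 6.87 and 6.84 in nTreg pools, a difference from iTreg cells of -0.61 ± 0.07 (limma adjusted p = 0.00164). In contrast, Rrm1, the stable subunit of the same reductase, had 9.10 and 9.14 in ex-iTreg and 9.16 and 9.17 in iTreg pools and was not called (-0.04). The licensing factor Cdc6 (-0.53 ± 0.11), the repressor E2f8 (-0.62 ± 0.15) and the helicase subunit Mcm3 (-0.26 ± 0.07) were also lower. The call for Cdc6 ended without iTreg pool 1 or ex-iTreg pool 2, that for E2f8 without either iTreg pool or ex-iTreg pool 2, and that for Mcm3 without any 1 of the 4 pools. The other 5 subunits of the MCM helicase differed by -0.01 to 0.15 and were not called.

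**Figure D4:**
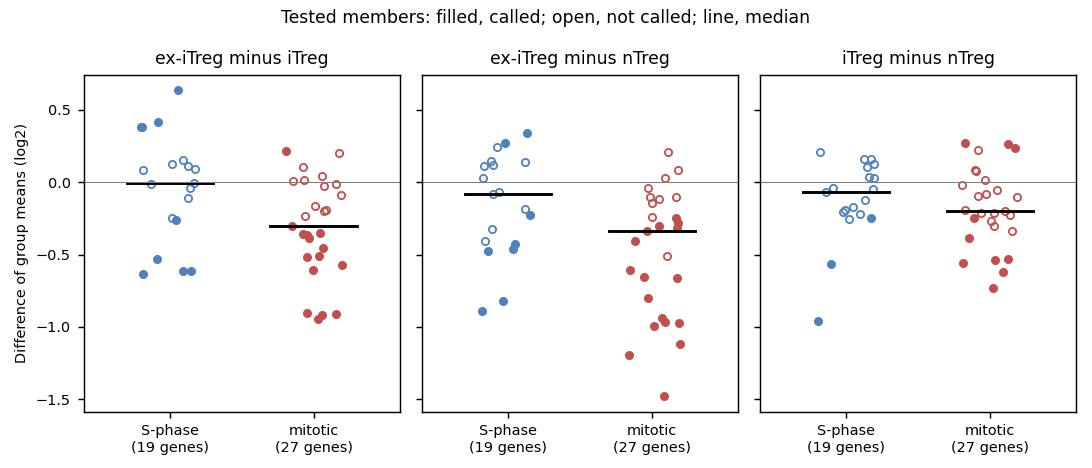
Difference of population means on the log2 scale for each tested member (19 S-phase in blue, 27 mitotic in red), for ex-iTreg minus iTreg, ex-iTreg minus nTreg and iTreg minus nTreg; filled points are called with limma, open points are not, and black lines are medians. The mitotic medians lie at -0.30, -0.34 and -0.20 and the S-phase medians at -0.0055, -0.09 and -0.07.

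Against nTreg cells, the second comparison, 17 of 27 mitotic members were lower in ex-iTreg cells (63%) and 0 were higher; at an unadjusted p under 0.05, 0 were higher as well, and limma-trend, the same test with a trend in its variance prior, also called 0 higher. Among all tested genes, 19% were lower and 18.4% higher, and the median difference was -0.34 over mitotic members and 0.03 over all tested genes. The count of 17 lower members ranged from 12 (without ex-iTreg pool 2) to 17 when 1 array was left out, and it was 16 of 26 without Ncapg, which passed the filter only through the nTreg pools that it is compared with here. This comparison uses the same ex-iTreg pools as the first, so the results are not independent. B cell markers (2 of 2 tested) were lower as well and 6 of 12 tested myeloid markers higher in ex-iTreg than in nTreg pools, and their part in the result was not tested.

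Apart from Ncapg (-1.48), Ccnb2, Birc5, Kif23, Ube2c, Melk and Mki67 had the largest mitotic differences from nTreg cells. Ccnb2 was 2.29-fold lower in ex-iTreg than in nTreg cells (-1.19 ± 0.08, limma adjusted p = 0.000123), Birc5 was 2.17-fold lower (-1.12 ± 0.14, limma adjusted p = 0.00134) and Mki67 was 1.92-fold lower (-0.94 ± 0.07, limma adjusted p = 0.000154). Kif23, a motor of the central spindle, had 6.78 and 6.61 in ex-iTreg, 7.41 and 7.18 in iTreg and 7.78 and 7.59 in nTreg pools, a difference from nTreg cells of -0.99 ± 0.11 (limma adjusted p = 0.00102). Melk, a kinase expressed in dividing cells, had 6.31 and 6.15 in ex-iTreg, 6.47 and 6.46 in iTreg and 7.34 and 7.04 in nTreg pools. Here both induced populations were low, and ex-iTreg cells differed from nTreg cells by -0.97 ± 0.11 (limma adjusted p = 0.00106). Top2a was lower in ex-iTreg than in nTreg cells (-0.41 ± 0.06, limma adjusted p = 0.00306), although its second tested probe set gave -0.03. Of the kinetochore and checkpoint members, Mad2l1 (-0.34), Bub1b (-0.30) and Cenpa (-0.28) were called lower against nTreg cells. Each of these 3 calls ended without nTreg pool 1 or without either ex-iTreg pool, that for Bub1b also without nTreg pool 2, and a second tested probe set of Cenpa was higher in ex-iTreg than in nTreg cells (1.25, limma adjusted p = 0.000686). The calls for Cdk1 (-0.32) and Cdca3 (-0.25) also ended without single arrays, Cdk1 without nTreg pool 2 or ex-iTreg pool 2 and Cdca3 without any 1 of the 6.

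Among S-phase members, 6 of 19 were lower in ex-iTreg than in nTreg cells (31.6%) and 2 were higher (10.5%), against 19% and 18.4% of all tested genes. Their median difference was -0.09, against 0.03 over all tested genes. The 6 were Rrm2 (-0.89 ± 0.08), Tk1 (-0.82 ± 0.07), the helicase subunit Mcm6 (-0.48 ± 0.07), the repair gene Brca1 (-0.46 ± 0.12), Cdc6 (-0.42 ± 0.11) and Mcm3 (-0.23 ± 0.07), and the higher ones were Cdt1 (0.34 ± 0.06) and the helicase subunit Mcm7 (0.27 ± 0.07). Mcm6 had 9.49 and 9.49 in ex-iTreg, 9.45 and 9.35 in iTreg and 9.98 and 9.96 in nTreg pools, so both induced populations were low (limma adjusted p = 0.0023 for ex-iTreg against nTreg). Of the 6 MCM genes, 1 was higher (16.7%), 2 were lower (33.3%) and 3 were not called, against 18.4% higher and 19% lower of all tested genes. The calls of Rrm2, Tk1, Mcm6 and Cdt1 were also made when any 1 array was left out. Those of Brca1 and Cdc6 ended without nTreg pool 1 or either ex-iTreg pool, that of Mcm7 without nTreg pool 2 or either ex-iTreg pool and that of Mcm3 without any 1 of the 6 arrays. The count of 6 lower members was 3 without nTreg pool 1 or ex-iTreg pool 2 and 4 without ex-iTreg pool 1, and the count of 2 higher members was 1 without nTreg pool 2 or either ex-iTreg pool.

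The third comparison, iTreg against nTreg cells, both positive for the reporter, showed fewer differences in these genes. Of 27 mitotic members, 7 were lower (25.9%) and 3 higher (11.1%) in iTreg cells, and of 19 S-phase members 3 were lower (15.8%) and 0 higher; at an unadjusted p under 0.05, 0 S-phase members were higher, and limma-trend called 1 higher. Among all tested genes, 12.7% were lower and 16.4% higher. The median difference was -0.20 over mitotic members and -0.07 over S-phase members, against 0.04 over all tested genes. The mitotic count of 7 was 6 of 26 without Ncapg and 4 without iTreg pool 2 or either ex-iTreg pool, and the count of 3 higher members was 0 or 1 without any 1 array. The S-phase count of 3 was 2 without any 1 array. In this comparison myeloid and erythroid markers were higher (10 of 12 and 3 of 4) and both tested B cell markers lower in iTreg pools, and their part in the result was not tested.

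The lower members in iTreg cells were Melk (-0.73 ± 0.11), Top2a (-0.62 ± 0.06), Mki67 (-0.56 ± 0.07), Mad2l1 (-0.54 ± 0.08), Ncapg (-0.53 ± 0.15), Kif23 (-0.39 ± 0.11) and Kif22 (-0.25 ± 0.06) among mitotic genes, and Ccne2 (-0.96 ± 0.11), Mcm6 (-0.57 ± 0.07) and Pcna (-0.25 ± 0.07) among S-phase genes. The second tested probe set of Top2a gave 0.0012 and was not called. Mad2l1, a subunit of the spindle checkpoint, had 8.60 and 8.65 in ex-iTreg, 8.48 and 8.37 in iTreg and 9.05 and 8.87 in nTreg pools (limma adjusted p = 0.00597 for iTreg against nTreg). Ccne2 was 1.94-fold lower in iTreg than in nTreg cells (limma adjusted p = 0.00212). The members that were higher in iTreg than in nTreg cells, Cdca3 (0.27 ± 0.08), Prc1 (0.26 ± 0.07) and Cdc20 (0.23 ± 0.06), were the highest in iTreg cells of the 3 populations. Their calls ended without any 1 of the 6 arrays, as did those of Pcna and Kif23, and those of Ncapg and Kif22 ended without 5 of the 6 arrays, each left out alone. Ccnb2 (-0.27 ± 0.08, limma adjusted p = 0.05), Ube2c (-0.06) and Birc5 (-0.22) were called lower in both other comparisons but not between iTreg and nTreg cells. Ncapg, Kif23, Melk and Mki67 were called lower both here and in ex-iTreg than in nTreg cells, as were Top2a and Mad2l1. Ncapg, which passed the filter only through its nTreg pools, Kif23 and Mki67 were called lower in ex-iTreg than in iTreg cells too. These 2 sets of genes are not sharply apart. Ccnb2 was called lower in iTreg cells with all probe sets averaged (limma adjusted p = 0.0289). Repeated quantile normalization (limma adjusted p = 0.0285) and a replicate block (limma adjusted p = 0.0381) also gave that call. The difference of Birc5 was -0.42 without nTreg pool 2.

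Of the 46 tested members, 14 were called in none of the 3 comparisons: the spindle kinases Plk1 and Aurka, the transcription factors Foxm1 and E2f1, the motors Kif11, Kif2c and Cenpe, the spindle protein Hmmr, the licensing inhibitor Gmnn, the helicase components Cdc45, Mcm2, Mcm4 and Mcm5, and Rrm1. Plk1 had 6.04 and 6.16 in ex-iTreg, 6.13 and 6.04 in iTreg and 6.01 and 6.13 in nTreg pools, and Aurka had 6.77 and 6.70, 6.67 and 6.70, and 6.81 and 6.74 in the same order. Foxm1 had 7.08 and 7.04 in ex-iTreg, 7.03 and 7.07 in iTreg and 6.94 and 7.02 in nTreg pools. The pools of Plk1 overlapped in all 3 comparisons. E2f1, the activator of the S-phase wave, had 5.93 and 6.03 in ex-iTreg, 6.13 and 5.86 in iTreg and 5.76 and 5.91 in nTreg pools. Mcm2 had 9.42 and 9.36, 9.39 and 9.39, and 9.28 and 9.26 in the same order, and Mcm5 had 9.37 and 9.29, 9.23 and 9.18, and 9.44 and 9.35. A missed threshold does not show that levels were equal: Kif11, which pushes the spindle poles apart, differed by -0.51 ± 0.17 between ex-iTreg and nTreg cells (limma adjusted p = 0.0542). The other tested probe set of Kif11 is dimmer and over the filter level only in nTreg pools. It was called lower in ex-iTreg than in iTreg cells (-0.55, limma adjusted p = 0.0132). Against nTreg cells it was called lower in ex-iTreg (-0.96, limma adjusted p = 0.00136) and in iTreg cells (-0.41, limma adjusted p = 0.0435). Since it passed the filter only through nTreg pools, the calls against nTreg cells are not independent of the filter, and all these sizes are uncertain. A second probe set of Mcm2 was called higher in iTreg than in nTreg cells (0.30, limma adjusted p = 0.0268). The members under the filter were Tyms, Aurkb, Bub1, Kif20a, Ndc80 and Tpx2. Of these, Aurkb, the kinase of the chromosomal passenger complex, had 4.92 and 4.83 in ex-iTreg, 5.36 and 5.28 in iTreg and 5.46 and 5.65 in nTreg pools, and the checkpoint kinase Bub1 had 4.71 and 4.71, 4.88 and 5.22, and 5.51 and 5.15. Tyms, the thymidylate synthase, had 4.78 and 4.55 in ex-iTreg, 4.33 and 4.65 in iTreg and 4.74 and 4.46 in nTreg pools. These levels lie near or under the filter level, and none of the 3 genes was tested.

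The promoter letters are set beside the calls as a description, and whether they go with the calls was not tested. Of 12 mitotic members that were lower in ex-iTreg than in iTreg cells and have a promoter, 10 hold CHR letters, and of 11 that were not called, 8 do. For S-phase members in the same comparison, E2F letters were in 2 of 3 that were higher, 4 of 5 that were lower and 5 of 8 that were not called. Against nTreg cells, CHR letters were in 11 of 15 mitotic members that were lower in ex-iTreg cells and 8 of 9 not called. E2F letters were there in 2 of 2 S-phase members that were higher, 5 of 6 that were lower and 4 of 8 not called.

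Other genes of the same processes were taken from lists drawn up with earlier results of these data known. Of 41 tested replication genes outside the member list, 11 were higher (26.8%) and 1 lower (2.44%) in ex-iTreg than in iTreg cells, against 15.6% and 21% of all tested genes, with a median difference of 0.12. Dbf4, the activating subunit of the origin-firing kinase, had 10.50 and 10.51 in ex-iTreg, 9.53 and 9.57 in iTreg and 9.40 and 9.35 in nTreg pools. Its ex-iTreg pools stood clear of all others, by 0.96 ± 0.06 against iTreg cells (limma adjusted p = 0.000165) and 1.13 ± 0.06 against nTreg cells (limma adjusted p = 4.99e-05). Cdc7, the catalytic subunit of the same kinase, was higher by 0.28 ± 0.06 than in iTreg cells, a call that ended without any 1 of the 4 pools compared, and by 0.55 ± 0.06 than in nTreg cells. The chromatin ATPase Atad2 (0.80 ± 0.07), the polymerase epsilon subunit Pole2 (0.75 ± 0.11), the helicase Hells (0.72 ± 0.07) and the origin recognition subunit Orc6 (0.67 ± 0.09) were also higher in ex-iTreg than in iTreg cells. Dtl, which recruits the ligase that destroys Cdt1 on PCNA, had 7.44 and 7.35 in ex-iTreg, 5.48 and 6.21 in iTreg and 7.70 and 7.72 in nTreg pools. The iTreg pools were low and apart from each other, and Dtl differed by 1.55 ± 0.21 between ex-iTreg and iTreg cells (limma adjusted p = 0.00255). Ung, which removes uracil from DNA, was higher in both induced populations than in nTreg cells (0.57 ± 0.06 for ex-iTreg and 0.35 ± 0.06 for iTreg), the call for iTreg cells ending without iTreg pool 1. The repair gene Rad51ap1 was the 1 gene called lower (-0.48 ± 0.07). The count of 11 was 7 without iTreg pool 2 or ex-iTreg pool 1 and 6 without ex-iTreg pool 2. Cdc7, Pole2, Orc6 and Rad51ap1 were named after their values were seen.

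Of 34 tested mitotic genes outside the member list, 6 were lower (17.6%) and 5 higher (14.7%) in ex-iTreg than in iTreg cells, with a median of -0.06, and 16 were lower (47.1%) and 1 higher (2.94%) against nTreg cells, with a median of -0.22, where 19% and 18.4% of all tested genes were called. The 5 higher calls against iTreg cells were between 0 and 2 without any 1 of the 4 pools compared, and the 6 lower ones were 4 without iTreg pool 1 or either ex-iTreg pool. The count of 16 was 9 without nTreg pool 1 and 10 without either ex-iTreg pool. The shares against iTreg cells lay near the 21% lower and 15.6% higher of all tested genes. The share lower against nTreg cells may include genes that passed the filter through the nTreg pools alone, and it was not counted without them. Smc4, the core ATPase of condensin, had 11.23 and 11.17 in ex-iTreg, 12.25 and 12.20 in iTreg and 12.14 and 12.16 in nTreg pools, and was 2.03-fold lower in ex-iTreg than in iTreg cells (-1.02 ± 0.06, limma adjusted p = 0.000139). Cep55, which recruits the abscission machinery, and Aspm, a spindle pole protein, were lower as well (-0.74 ± 0.13 and -0.54 ± 0.08). Plk4, the kinase of centriole duplication, went the other way, with 7.81 and 7.91 in ex-iTreg, 7.50 and 7.45 in iTreg and 8.29 and 8.11 in nTreg pools. Stmn1, a microtubule destabiliser, and the motor Kif18a were lower in both induced populations than in nTreg cells. Their differences were -0.64 ± 0.07 and -0.35 ± 0.08 for ex-iTreg and -0.56 ± 0.07 and -0.47 ± 0.08 for iTreg cells. The Kif18a call for ex-iTreg cells ended without nTreg pool 1 or ex-iTreg pool 1. The difference of Plk4 between ex-iTreg and iTreg cells (0.38 ± 0.08) lost its call without either iTreg pool or ex-iTreg pool 2.

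In the G1 machinery that controls entry into the cycle, the populations differed gene by gene. Cyclin D1 (Ccnd1), a partner of CDK4 and CDK6, had 6.42 and 6.55 in ex-iTreg, 5.98 and 5.85 in iTreg and 5.84 and 5.85 in nTreg pools (0.57 ± 0.08 for ex-iTreg against iTreg), a call lost when all probe sets of the gene were averaged (adjusted p = 0.183). Cdk6, a kinase that D cyclins activate, had 11.01 and 11.04 in ex-iTreg, 10.41 and 10.41 in iTreg and 10.88 and 10.73 in nTreg pools (0.62 ± 0.07, limma adjusted p = 0.0014 for ex-iTreg against iTreg). Cdk2, the partner of E cyclins, was lower in ex-iTreg than in iTreg cells (-0.69 ± 0.09), with 7.57 and 7.66 in ex-iTreg, 8.31 and 8.31 in iTreg and 8.09 and 7.85 in nTreg pools. Cdk4 was higher in both induced populations than in nTreg cells (0.43 ± 0.06 for ex-iTreg and 0.45 ± 0.06 for iTreg). Ccnd2, with 12.16 and 12.18 in ex-iTreg, 12.23 and 12.22 in iTreg and 12.13 and 12.10 in nTreg pools, and Ccnd3, with 9.95 and 9.61, 9.74 and 9.80, and 9.42 and 9.63 in the same order, were called in none of the 3 comparisons by the probe sets used. With all their probe sets averaged, both were called higher against nTreg cells, Ccnd2 by 0.49 in ex-iTreg and 0.66 in iTreg cells and Ccnd3 by 0.66 and 0.62, and Ccnd2 was called lower in ex-iTreg than in iTreg cells (-0.17, adjusted p = 0.0485).

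Of 6 tested inhibitors of CDKs, 1 was higher and 1 lower against iTreg cells, and 1 was higher and 4 lower against nTreg cells. The shares were 16.7% each way against iTreg cells, near the 15.6% and 21% of all tested genes, and 16.7% and 66.7% against nTreg cells, where 18.4% and 19% of all tested genes were called. Cdkn2c, the p18 inhibitor of CDK4 and CDK6, had 8.15 and 8.11 in ex-iTreg, 8.78 and 8.65 in iTreg and 9.09 and 8.95 in nTreg pools, a difference of -0.59 ± 0.08 from iTreg cells (limma adjusted p = 0.00264) and -0.89 ± 0.08 from nTreg cells. Cdkn1a, the p21 inhibitor, had 8.60 and 8.60 in ex-iTreg, 8.71 and 8.73 in iTreg and 9.004 and 8.968 in nTreg pools and was lower in ex-iTreg than in nTreg cells (-0.39 ± 0.06). Cdkn1b, the p27 inhibitor of resting T cells, had 11.12 and 11.41 in ex-iTreg, 10.66 and 11.07 in iTreg and 10.96 and 11.05 in nTreg pools and was called in no comparison by the probe set used (0.40 ± 0.15 for ex-iTreg minus iTreg, limma adjusted p = 0.0864). With all its probe sets averaged it was called higher against nTreg cells in ex-iTreg (0.47, adjusted p = 0.00344) and in iTreg cells (0.28, adjusted p = 0.0353), and limma-trend called it higher in ex-iTreg than in iTreg cells (adjusted p = 0.00392). Cdkn2b, the p15 inhibitor, was the 1 higher gene against iTreg cells (0.39 ± 0.11), a call that ended without either iTreg pool or ex-iTreg pool 2, and was lower against nTreg cells (-0.47 ± 0.11), a call that ended without nTreg pool 1 or ex-iTreg pool 1. Cdkn2d, the p19 inhibitor, was higher in both induced populations than in nTreg cells (0.28 ± 0.07 for ex-iTreg and 0.34 ± 0.07 for iTreg), calls that ended without 2 or more of the single arrays. Of the retinoblastoma family, Rbl2, the partner of MuvB in resting cells, was lower in ex-iTreg than in iTreg cells (-0.46 ± 0.08) and nTreg cells (-0.64 ± 0.08). Its relative Rbl1 was lower in ex-iTreg than in iTreg cells too (-0.40 ± 0.07), a call lost when all probe sets of the gene were averaged (adjusted p = 0.407). The activator E2f2 was lower in ex-iTreg than in iTreg cells (-0.66 ± 0.09) and nTreg cells (-0.58 ± 0.09), and the activator E2f3 was lower in both induced populations than in nTreg cells (-0.62 ± 0.07 for ex-iTreg and -0.55 ± 0.07 for iTreg). E2f6, a repressor, was higher in both (0.39 ± 0.08 and 0.33 ± 0.08) and the MuvB subunit Lin54 lower in both (-0.46 ± 0.11 and -0.47 ± 0.11). These calls of E2f6 and Lin54 ended without 2 or more of the single arrays.

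Of 9 tested genes known to keep T cells at rest, 4 were higher and 1 was lower in ex-iTreg than in iTreg cells (44.4% and 11.1%), against 15.6% and 21% of all tested genes. The counts against nTreg cells were also 4 and 1, where 18.4% and 19% of all tested genes were called. Klf2, a transcription factor of resting T cells, had 12.53 and 12.50 in ex-iTreg, 12.23 and 12.38 in iTreg and 11.81 and 11.83 in nTreg pools. It was higher in ex-iTreg than in nTreg cells (0.69 ± 0.07, limma adjusted p = 0.000733) and did not pass the test against iTreg cells (0.21 ± 0.07, limma adjusted p = 0.068). The antiproliferative Tob1 was higher in ex-iTreg than in iTreg cells (0.61 ± 0.09) and nTreg cells (0.67 ± 0.09), while Foxo1, the lower gene in both comparisons, differed by -0.37 ± 0.08 and -0.62 ± 0.08. Of the 4 higher calls against iTreg cells (Tob1, Btg2, Slfn2 and Tsc22d3), that of Tob1 was also made when any 1 array was left out, and the other 3 ended without 1 or more single pools. That of Foxo1 against iTreg cells ended without iTreg pool 1 or ex-iTreg pool 2.

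Of 6 growth drivers, 4 were higher and 2 lower in ex-iTreg than in iTreg cells (66.7% and 33.3%), against 15.6% and 21% of all tested genes. Odc1, the first enzyme of polyamine synthesis, had 12.26 and 12.30 in ex-iTreg, 11.70 and 11.67 in iTreg and 12.47 and 12.44 in nTreg pools (0.60 ± 0.06, limma adjusted p = 0.000849 for ex-iTreg against iTreg). The nucleolar proteins Ncl (0.49 ± 0.06), Nolc1 (0.44 ± 0.06) and Npm1 (0.36 ± 0.08) were higher too. Myc itself had 9.27 and 9.23 in ex-iTreg, 9.68 and 9.85 in iTreg and 9.34 and 9.08 in nTreg pools, so that iTreg pools were the high ones. It was lower in ex-iTreg than in iTreg cells (-0.51 ± 0.10, limma adjusted p = 0.0109), a call that ended without iTreg pool 2 or either ex-iTreg pool, as that of Npm1 did without either iTreg pool or ex-iTreg pool 2. The transferrin receptor Tfrc was the other lower gene (-0.33 ± 0.06), a call that ended without ex-iTreg pool 2.

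**Figure D5:**
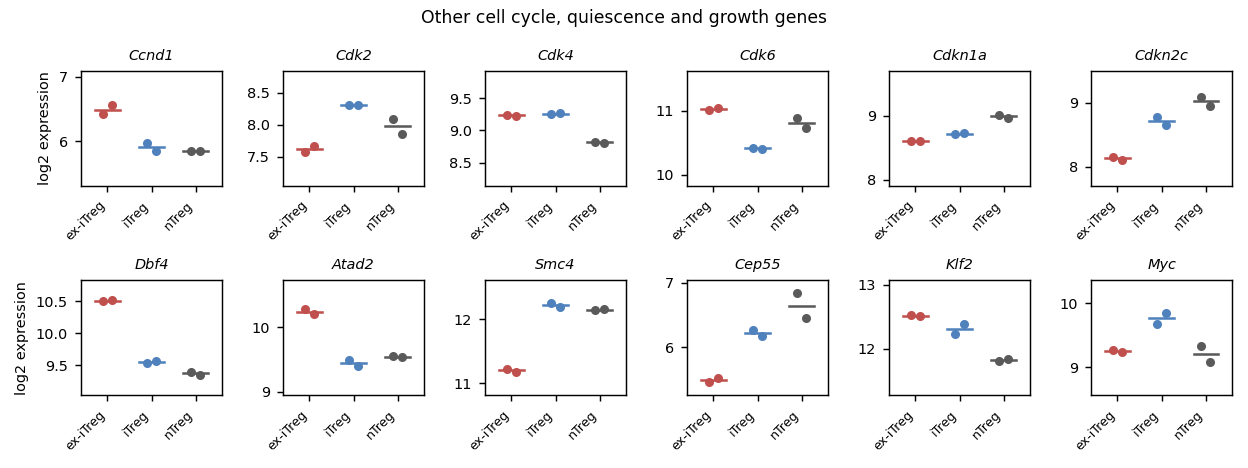
Log2 expression of 12 cell cycle, quiescence and growth genes outside the member list on each array (points, 2 pools per population) with the population mean (line), ex-iTreg left, iTreg middle and nTreg right; vertical axes differ between panels. Dbf4 and Atad2 are highest and Smc4 and Cep55 lowest in the ex-iTreg pools, and Myc is highest in the iTreg pools at 9.68 and 9.85.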

How the data were processed

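The deposited table holds log2 expression values per probe set for 6 arrays, made by the authors with RMA, which the submitters' processing notes name. RMA corrects background, quantile-normalizes and summarises probes across arrays; which program ran it is not given in the sources used here. It makes array distributions alike, so a global change in RNA per cell cannot be seen, and it compresses differences of dim probe sets. Of 45101 probe sets, 64 are controls, 34945 carry 1 gene symbol, 932 several and 9160 none. Probe sets over 5.48 (the median of all values) on at least 2 arrays, 23484 in all, entered a limma fit (version 3.58.1, R 4.3.3) of 1 model with a mean per population and no covariates, with Benjamini-Hochberg adjustment across all of them and a threshold of 0.05. The model has 3 residual and 3.37 prior degrees of freedom. Two-sided exact permutation of 2 against 2 arrays cannot go below p = 0.33 and was not used. Errors are limma standard errors, and the number of arrays limits precision. A gene was represented by its annotated probe set with 1 gene symbol and the highest mean. The members, lists and promoter motifs were chosen with earlier results of these data known. Genes were named by rule: in each comparison up to 8 called members of each phase with the largest differences and no overlap of pools, a set of standard cycle genes always, and up to 3 called genes of each other list by absolute t. Others were named to account for every member, and some, as stated, after their values were seen. Alternatives were no filter, the mean of all probe sets, repeated quantile normalization, limma-trend, a replicate block, the 2 populations alone and leaving out each array. Only for members were counts also repeated without genes over the filter level in 1 population alone. A comparison with conventional T cells is not analysed here. Figures were drawn with matplotlib 3.10.9.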

Additional observations from a re-analysis of the deposited data

How the results depend on the processing

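Of 134 named-gene results that were called, 79 were called under every alternative and 0 changed sign; 52 lost their call without some array and 30 under another setting. Of 70 that were not called, 32 were called under some alternative, 18 with all probe sets averaged and 19 with limma-trend, some with both. With all probe sets of a gene averaged, 3 S-phase members were lower in ex-iTreg than in iTreg cells, 1 mitotic member was higher in ex-iTreg than in nTreg cells, 2 S-phase members were higher in iTreg than in nTreg cells, and the ex-iTreg minus nTreg medians were -0.023 (S-phase) and -0.41 (mitotic). Without a filter, the S-phase median for ex-iTreg minus iTreg was 0.039, 0 mitotic members were higher in ex-iTreg than in iTreg cells, 1 S-phase member was higher in ex-iTreg than in nTreg cells, and 0 mitotic members were higher and 4 lower in iTreg than in nTreg cells, counts that the fit of those 2 populations alone also gave. With limma-trend, 1 S-phase member was higher and 5 were lower in iTreg than in nTreg cells.

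Deviations of same-numbered pools correlated at -0.04 (ex-iTreg and iTreg), -0.09 (ex-iTreg and nTreg) and -0.01 (iTreg and nTreg), so no strong shared offset was seen. The labels do not state whether same-numbered pools came from the same mice. With so few pools per population, these correlations cannot decide whether the pools are paired. A replicate block gave 0 mitotic members higher in ex-iTreg than in iTreg cells and 1 higher in iTreg than in nTreg cells, and 13, 15 and 7 mitotic members lower in the 3 comparisons.

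When 1 array was left out, ex-iTreg minus iTreg had 3 to 4 S-phase members higher and 2 to 5 lower (median -0.0055 to 0.070), and 0 to 1 mitotic members higher and 9 to 14 lower (median -0.34 to -0.25). Ex-iTreg minus nTreg had 1 to 3 S-phase members higher and 3 to 7 lower (median -0.12 to -0.085), and 0 to 1 mitotic members higher and 12 to 17 lower (median -0.40 to -0.34). ITreg minus nTreg had 0 S-phase members higher and 2 lower (median -0.13 to -0.057), and 0 to 1 mitotic members higher and 4 to 7 lower (median -0.24 to -0.11). A lone remaining pool was assumed to vary like the other populations.

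The differences that changed sign were all uncalled at first, and their ranges when 1 array was left out crossed 0 unless stated. For ex-iTreg minus iTreg, Mcm2 was 0.013 with repeated quantile normalization (-0.035 to 0.024 without 1 array), Mcm5 was -0.079 and Cdkn1a 0.12 with the mean of probe sets (the other settings kept their sign), E2f1 ranged from -0.15 to 0.12, Ccnd3 was -0.00128 with repeated quantile normalization (-0.16 to 0.18 without 1 array), E2f6 ranged from -0.037 to 0.14 and Lin54 from -0.16 to 0.18, while with the mean of probe sets Lin54 was called higher (0.40, adjusted p = 0.0145). For ex-iTreg minus nTreg, Myc ranged from -0.084 to 0.17. For iTreg minus nTreg, Cdc6 ranged from -0.0051 to 0.22, Ube2c from -0.12 to 0.0073, Cdk1 from -0.065 to 0.029, Cdkn1b from -0.34 to 0.063 and Nolc1 from -0.0085 to 0.049, and with the mean of probe sets Mcm5 was 0.018, Atad2 0.17 and Cdkn1b 0.28, the last being called (adjusted p = 0.0353). The cause of these changes was not tested. With 2 pools per population, genes near the filter level, such as Ncapg, Ccne2 and E2f8, have uncertain sizes.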
